A study of Mus musculus with 24 samples.

Results

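A gene can hold one AGO2 peak in its 3' untranslated region (3' UTR) or many, and the peaks described here are those of genes with a single peak. The members were every row of the authors' deposited peak table whose gene symbol occurs exactly once in it. The rule found 1700 peaks in 1700 genes, out of 14634 peaks in 4165 genes, so 40.8% of all genes with a peak had just 1. The remaining 12934 peaks lay in 2465 genes with 2 or more peaks. The rule used only the number of peaks of a gene and no value of their reads, sequence or position. That number was itself obtained from the same reads, and a longer 3' UTR has more room for peaks. Reads, position and 3' UTR length below are thus not independent of the rule.

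The libraries were made by HITS-CLIP, in which Argonaute 2 (AGO2) is crosslinked to the RNA it holds, immunoprecipitated after partial RNase digestion, and the bound fragments are sequenced. The cells were CD4+ T cells of C57BL/6 mice, isolated from spleen and lymph nodes with magnetic beads and cultured for 4 days with activating antibodies (anti-CD3 and anti-CD28, 1 µg/mL) in the presence of 20 U/mL of IL-2. There were 12 wild-type (WT) libraries and 12 libraries of miR-155 knockout (KO) cells, with 6 of each genotype for each of the 3' linkers; the labels say nothing of how the knockout allele was made. The deposited table holds a pooled value per genotype and none per library. Each read number below is therefore a scaled read number pooled over the 12 libraries of a genotype, with no replicate error and an unknown depth behind it, and the linkers cannot be compared.

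MicroRNAs guide AGO2 to messenger RNAs mainly by pairing of the seed, the bases near the 5' end of the microRNA, with sites in 3' UTRs. A site is named by its length: an 8mer pairs with the whole seed and has an A after it, a 7mer lacks the A or the outermost pair, and a 6mer lacks both. miR-155 is made when lymphocytes are activated and is known to shape helper T cell responses. The 3' end of most messenger RNAs is set by a polyadenylation signal, most often the hexamer AATAAA, which lies a short distance before the cleavage site.

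The mature sequences of the microRNAs that the results turn on, from RefSeq's GRCm38.p6 annotation, are shown first, with the seed (bases 2 to 8) in capitals.
miR-155-5p: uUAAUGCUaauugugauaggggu
miR-92a-3p: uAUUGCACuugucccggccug
miR-16-5p: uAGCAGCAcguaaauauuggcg
miR-142a-3p: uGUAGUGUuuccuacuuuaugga
miR-19b-3p: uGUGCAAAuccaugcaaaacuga
miR-21a-5p: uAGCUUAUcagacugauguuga
No pair of these shares a seed. miR-92a shares its seed with the miR-25/92 family and miR-16 with the miR-15/16 family, under whose names their sites are counted.

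Of the 7 single-peak genes whose peak was lower in the knockout, 6 held at least a 6-nt match to the miR-155 seed. It was a site of 7 or 8 nt in 5 and a 6mer alone in 1. Of the 77 lowered peaks of other genes, 54 held a site of 7 or 8 nt and 7 a 6mer alone. Such matches were thus common among lowered peaks of both sets. The sites of 5 of the 6 single peaks are shown in windows of 30 nt on the transcript strand, with the match in capitals. The site of Pax3, which just missed the threshold, follows.
Mcm2: gccaaggctgtAGCATTAAatgactattta
8430406I07Rik: gtaaatctagtAGCATTAAaattataagtt
Sfmbt1: tacaattttatGCATTAAagacaaagtatt
Srp68: caagttccatgGCATTAAatccagttctgc
Taok3: gtcataaatattGCATTAtccatcctttca
Pax3: gaaataacctctAGCATTAgaaacacatgt
Mcm2 and 8430406I07Rik carry 8mers. Sfmbt1 and Srp68 carry 7mers that end in the extra A, Pax3 a 7mer without it, and Taok3 only the 6mer. The window of Mpeg1, also a 7mer with the A, is not shown. On GRCm38 the windows lie in the last exon at chr6:88883830-88883859 (Mcm2, minus strand, exon 16 of 16), chr2:144280429-144280458 (8430406I07Rik, plus, exon 5 of 5) and chr14:30822591-30822620 (Sfmbt1, plus, exon 21 of 21). Those of Srp68 (chr11:116245615-116245644, minus, exon 16 of 16), Taok3 (chr5:117275030-117275059, plus, exon 20 of 20) and Pax3 (chr1:78103039-78103068, minus, exon 8 of 8) also lie in the last exon.

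The single peaks with the most reads held sites of other families. They are shown because they carry the most AGO2 reads, at similar levels in both genotypes in most cases, and because the site of Rpl13 runs into the polyadenylation signal.
Aldoa: cccatcactctTGCTGCTgccctcgtgtgc
Vps33b: tatatagttcaTGCTGCTAagatatgaggg
Cic: atgttgatcatGTGCAATAtttcttactgt
Ndufa5: gggaattaaatGTGCAATtaaatgctctgt
Rpl13: tgttggagagcTGCAATAaattttccataa
Rab3a: agaagttatgaACACTACAcacagtcaata
Tnip1: ctaggcagccgTTTGCACAaatcttggaca
2310035C23Rik: gtattatactcTAAGCTAttacaatggtac
The capitals mark sites of miR-15/16 (Aldoa and Vps33b), miR-25/92 (Cic, Ndufa5 and Rpl13), miR-142-3p (Rab3a), miR-19 (Tnip1) and miR-21 (2310035C23Rik). In Rpl13 the miR-25/92 site and the hexamer AATAAA share letters. The peak of Eef1b2 shows the hexamer, in capitals, with no site of a searched family.
Eef1b2: tcagtgcacttaAATAAAagcttgaaagat
These windows lie on GRCm38 at chr7:126795305-126795334 for Aldoa (minus strand, exon 10 of 10), chr7:80291484-80291513 for Vps33b (plus, exon 23 of 23), chr7:25294074-25294103 for Cic (plus, exon 21 of 21), chr6:24518672-24518701 for Ndufa5 (minus, exon 5 of 5) and chr8:123105208-123105237 for Rpl13 (plus, exon 6 of 6). Rab3a lies at chr8:70758559-70758588 (plus), Tnip1 at chr11:54910808-54910837 (minus), 2310035C23Rik at chr1:105753973-105754002 (plus), and Eef1b2 at chr1:63179625-63179654 (plus).

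Single peaks held fewer reads than the peaks of other genes. The median was 12.6 scaled reads in WT and KO together (quartiles 6.38 and 26.6), against 18 (8.15 and 42.8) for the peaks of genes with 2 or more, and against 55.3 for the most-read peak of each of those genes. The most-read peak was chosen for its reads, so a high value there was built in. A gene with 2 or more peaks held a median of 102.7 reads over all of them. The 1700 single peaks made up 7.04% of all reads in the table. At least 20 reads were held by 567 of them (33.4%), against 46.6% of the peaks of other genes, and at least 100 reads by 82. Just outside the rule, the 1518 peaks of the 759 genes with exactly 2 peaks held a median of 15.05 reads and started at a median of 519 nt in the 3' UTR, against 441 nt for the single peaks. These are the authors' pooled values, so they describe the table and carry no test.

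Reads in a single genotype were common among the single peaks. No KO reads were listed for 384 of them (22.6%) and no WT reads for 166 (9.76%), against 15.8% and 7.62% of the peaks of other genes. The peaks of 5 genes, Cit, Edf1, Eif5b, Ssr3 and Zbtb37, were listed at 0 in both. Among the 567 single peaks of at least 20 reads, 15 were listed at 0 in the knockout and 3 in WT. Peaks were also looked up at 8 T cell markers and at markers of other cells. A peak shows AGO2 binding and not expression, so its presence or absence is no check of the cells' identity. Cd4 held 75.9 WT and 63.3 KO reads over 5 peaks, and Cd3e and Cd28 also had several peaks. Cd3g and Lat had 1 peak each, and no peak was listed for Cd5, Cd6 or Lck. No peak was listed for any of the listed markers of B cells, myeloid cells, CD8 T and NK cells, or erythroid cells and platelets, though single peaks of some genes of B cells and antigen-presenting cells outside these lists, such as Cd74 and Cr2, were present.

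AGO2 reads at 7 single peaks were lower in the knockout at an adjusted p below 0.05 and at none were they higher. All 7 were listed at 0 reads in the knockout. The p is that of the authors' deposited table, with a Benjamini-Hochberg adjustment over its 14634 peaks. Of all peaks, 0.574% (84) were lower by this rule and 0.0273% (4) were higher. The single peaks' share of lowered calls was 0.412%, and that of the other genes' peaks 0.595%, so the members were near the background. No lowered peak in the table held fewer than 17.6 reads. Among peaks with at least that many, 7 of 643 single peaks (1.09%) and 1.18% of the others were lowered. Before adjustment, 44 single peaks had p below 0.05 with more WT reads (2.59%, against 2.72% of all peaks) and 25 with more KO reads (1.47%, against 1.48%).

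**Figure D1:**
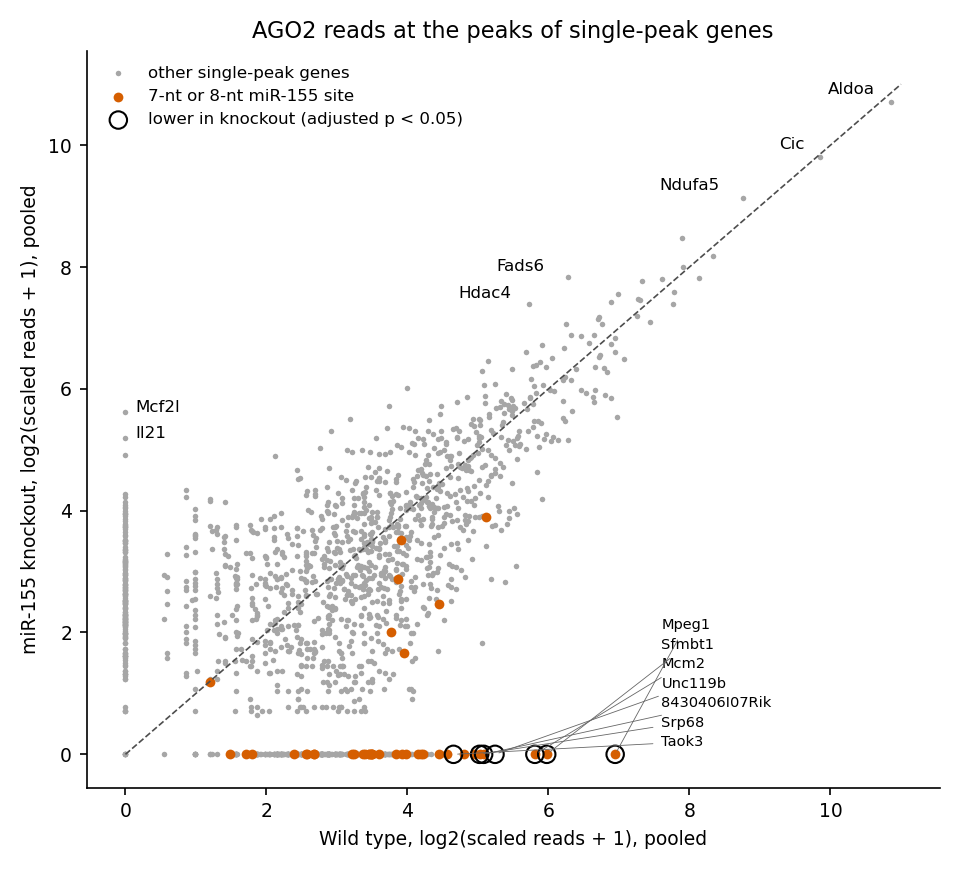
Pooled scaled reads in WT (x axis) and KO (y axis) at the peak of each of the 1700 single-peak genes, as log2(scaled reads + 1); orange points hold a 7-nt or 8-nt miR-155 site and circles mark the 7 peaks lower in the knockout. All 7 lie on the line of 0 knockout reads, with 24.2 to 122 reads in WT, and the dashed line marks equal reads.

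The lowered peak with the most reads was that of Mpeg1, which encodes a pore-forming protein of phagocytes. It held 122 reads in WT and was listed at 0 in KO (adjusted p = 7.92e-05 from the authors' deposited table). The peak of Sfmbt1, a chromatin protein with MBT repeats, held 61.9 reads in WT and 0 in KO, and had the smallest p of the single peaks (adjusted p = 8.16e-09 from the authors' deposited table). Mcm2, a subunit of the helicase that opens DNA for replication, held 55 and 0 reads (adjusted p = 0.00317, authors' deposited table). These 3 peaks carry a 7mer, a 7mer and an 8mer. 8430406I07Rik, a gene known by a clone name, held 32.8 and 0 reads (adjusted p = 0.000445, authors' deposited table). Srp68, a subunit of the particle that brings nascent proteins to the endoplasmic reticulum, held 31.5 and 0 reads (adjusted p = 0.00155, authors' deposited table). Taok3, a STE20-family kinase, held 24.2 and 0 reads (adjusted p = 0.00463, authors' deposited table).

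The seventh was Unc119b, a carrier of lipid-modified proteins, with 36.8 reads in WT and 0 in KO (adjusted p = 4.22e-07, authors' deposited table). Its peak, chr5:115125172-115125211 of GRCm38 in exon 5 of 5 on the minus strand, held no match to the miR-155 seed of even 6 nt. The lowered peaks lay anywhere along the 3' UTR. Srp68 and Mcm2 started 53 and 123 nt after its first nucleotide, and Sfmbt1 4737 nt after it, 101 nt before the annotated end.

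A site of 7 or 8 nt for miR-155 was present in 41 single peaks, 2.41% (exact 95% binomial interval 1.74 to 3.26, for counting error only), and in 1.73% of the peaks of other genes. Among peaks of at least 20 reads the shares were closer, 2.12% and 1.94%. Between 10 and 20 reads they were 3.33% and 1.80%. Only above 50 reads did the single peaks have the lower share, 1.36% of just 221 peaks against 1.88%. All 41 had more reads in WT than in KO, and 34 were listed at 0 in KO and none in WT. Among the other genes' 224 peaks with such a site, 206 had more WT reads and 121 were listed at 0 in KO. In all, 58.8% of the single peaks had more WT reads. The median log2 ratio of WT over KO, (reads + 1), was 3.45 for the 41 and 3.05 for the 224. Of the 12 with at least 20 reads, 9 were listed at 0 in KO. The class most common among the single peaks was the 7mer with the extra A, in 19, followed by the 8mer in 12 and the 7mer-m8 in 10. In the other genes these numbered 85, 55 and 84. A lone 6mer was present in 12 single peaks, 10 of which had more WT reads (median log2 ratio 2.12).

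The well-read single peaks with a site that were not called fell into those without KO reads and those that kept some. Pax3, a transcription factor of muscle and neural crest precursors, held 27 WT and 0 KO reads (adjusted p = 0.0623, authors' deposited table). Ccdc130, with an 8mer, held 29.9 and 0 (adjusted p = 0.0685, authors' deposited table). Both would be called at a threshold of 0.1. Syvn1, a ubiquitin ligase of the endoplasmic reticulum, held 22.7 and 0 reads and Csnk1g2, a casein kinase, held 20.8 and 0, with adjusted p of 0.302 and 0.576 from the authors' deposited table. Reads remained in KO at Terf1, a telomere-binding protein, with 33.7 in WT and 13.8 in KO. Wbscr22, an RNA methyltransferase, held 20.7 and 4.51, and Ell2, an elongation factor of RNA polymerase II, held 14.0 and 10.5. Terf1 and Ell2 also held sites of other families, miR-142-3p and miR-30 in Terf1 and miR-30 in Ell2, and Wbscr22 did not. Among genes of the listed groups, the respiratory chain subunit Ndufs1 held 17.2 WT and 0 KO reads at an 8mer, and Diablo, a mitochondrial promoter of cell death, held 9.56 and 0 at a 7mer.

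No single peak was called higher in the knockout. The most negative log2 ratios among the single peaks of at least 20 reads belonged to Mcf2l, an exchange factor for small GTPases, with 0 WT and 48.3 KO reads, and Il21, a cytokine of follicular helper T cells, with 0 and 35.6. Mcf2l had an adjusted p of 0.0627 and Il21 of 1.00 from the authors' deposited table, where the unadjusted p of Il21 was 0.151. Apobec3, a cytidine deaminase that restricts retroviruses, held 0 and 29.3 reads. Fam126a held 0.822 and 19.3, and Il13, a type 2 cytokine, 3.33 and 28.8. Kbtbd4, named because only it and Mcf2l would be called higher at 0.1, held 3.62 WT and 14.6 KO reads (adjusted p = 0.0680, authors' deposited table).

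Most of the heavily read single peaks had similar reads in both genotypes. The most-read was that of Aldoa, the aldolase of glycolysis, with 1847 WT and 1668 KO reads. Cic, a transcriptional repressor downstream of receptor tyrosine kinases, held 927 and 893. Ndufa5, a subunit of respiratory complex I, held 433 and 558. The ribosomal protein gene Rpl13 held 322 and 291, and Eef1b2, a translation elongation factor, 281 and 225. Among these 5 the log2 ratio lay between -0.37 (Ndufa5) and 0.32 (Eef1b2), and none was called. 2310035C23Rik held 237 and 356 reads, and Tnip1, an inhibitor of NF-kB signalling, 195 and 223. Of the 15 with the most reads, 8 held a site of a searched family.

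Larger gaps appeared at a few well-read peaks, all without a call. Hdac4, a histone deacetylase, held 52.0 WT and 166 KO reads at a peak with a miR-142-3p site (p = 0.0579 before adjustment, authors' deposited table). Fads6, a fatty acid desaturase family member with a miR-21 site, held 76.3 and 226 (p = 0.540, authors' deposited table). Scd1, the stearoyl-CoA desaturase, held 118 and 56.8 at a miR-19 8mer (p = 0.153, authors' deposited table). B930036N10Rik held 125 and 45.7 (p = 0.0211 before and 0.832 after adjustment, authors' deposited table). Every called single peak was listed without KO reads, whereas these peaks kept reads in both genotypes.

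Single-peak genes had short 3' UTRs. The annotated length could be given for 1562 of the 1700 (91.9%), and its median was 1376 nt (quartiles 632 and 2345), against 2032.5 nt for the genes with 2 or more peaks (1 most-read peak each). Where the 3' UTR was at most 250 nt long, 125 of 154 genes with a peak had a single one (81.2%). The share fell in each longer class, to 54.7% above 250 and up to 500 nt, 47.6% up to 1000 nt, 39.1% up to 2000 nt, 33.6% up to 4000 nt and 24.1% (120 of 498) beyond 4000 nt. Within every length class the single-peak genes held fewer reads per gene. Their median lay between 11.4 and 16.6, and that of the other genes between 62.2 and 114.0. Reads were summed over the peaks of a gene, so 1 peak was set against a sum of 2 or more. A lower value for single-peak genes was therefore built into this comparison.

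**Figure D2:**
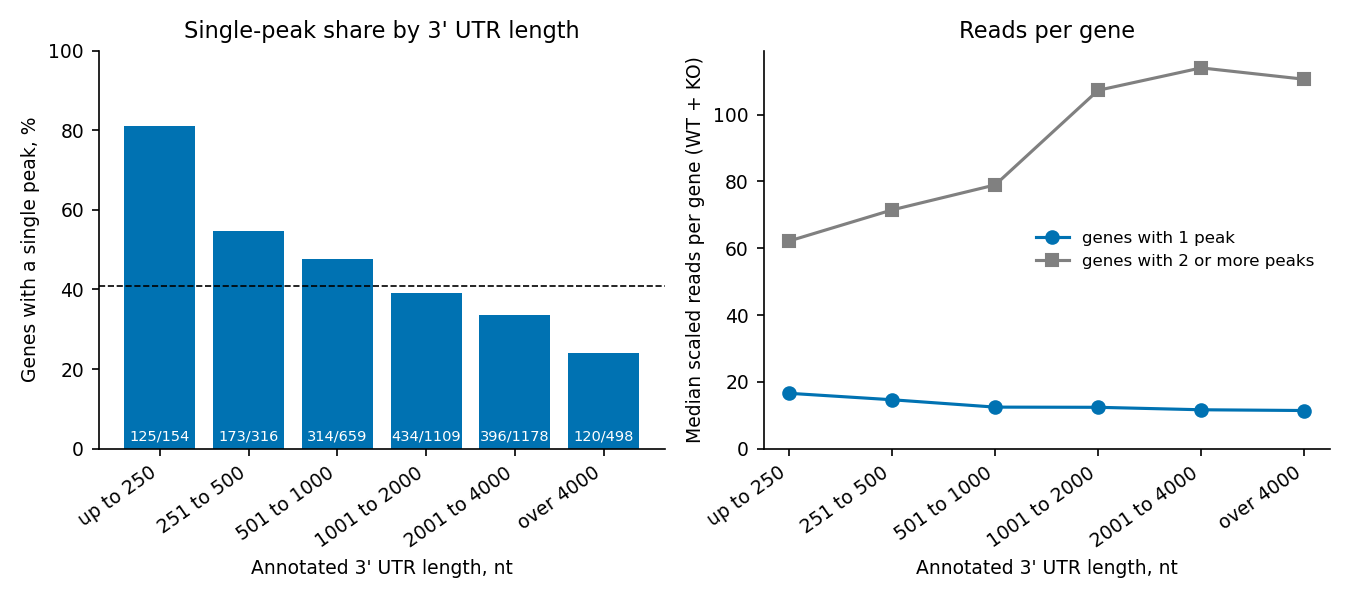
Left, percent of genes with a peak that have a single peak, by annotated 3' UTR length in nt, with the numbers of genes in the bars and the 40.8% of all genes as a dashed line. Right, median scaled reads per gene (WT plus KO, summed over its peaks) in the same classes for genes with 1 peak (circles) and with 2 or more (squares). The share falls from 81.2% to 24.1% while the reads of single-peak genes stay between 11.4 and 16.6.

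The single peaks started nearer the stop codon in nucleotides, but not as a share of the 3' UTR. The median start was 441 nt after the first nucleotide of the 3' UTR (quartiles 165 and 1044), against 952 nt for the peaks of other genes. As a percent of the annotated 3' UTR length it was 44.8, against 46.2. The first 100 nt held 290 single peaks (17.1%) and 6.29% of the others. A start beyond 3000 nt was found for 64 single peaks (3.76%) and for 12.1% of the others. Peak length (median 40 against 39 nt) and GC content (median 36.8% in both) were alike.

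**Figure D3:**
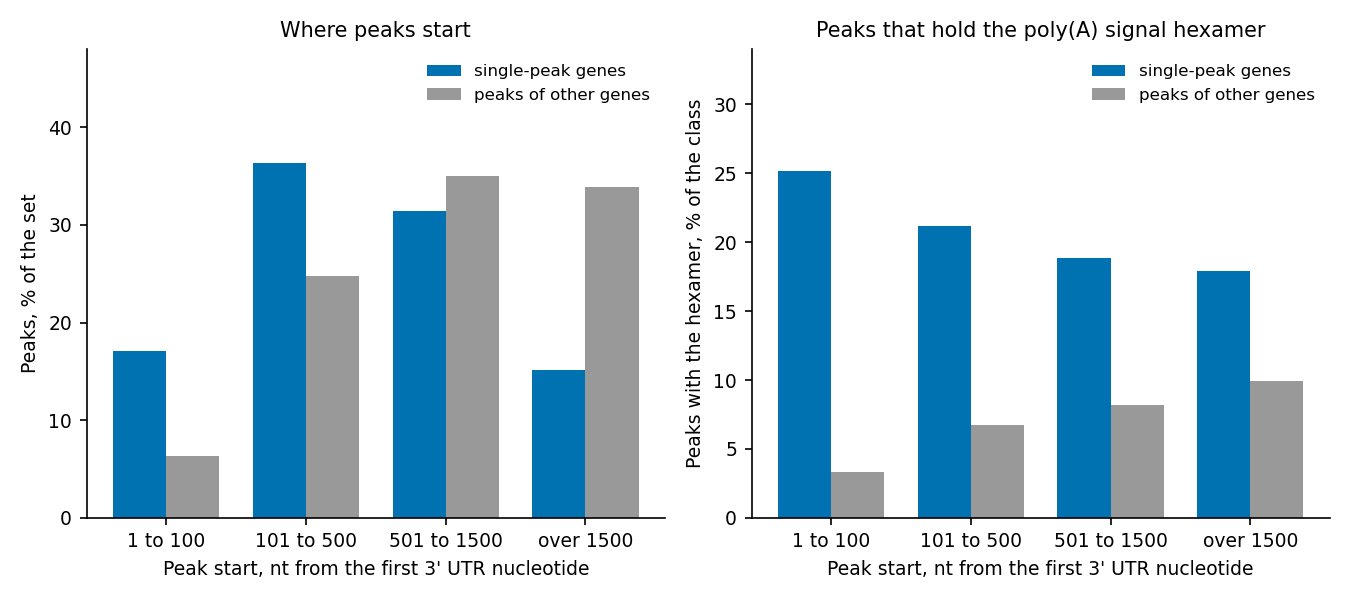
Left, percent of single peaks (blue) and of the peaks of other genes (grey) by distance of the peak start from the first 3' UTR nucleotide. Right, percent of the peaks of each class that hold the hexamer AATAAA; among peaks in the first 100 nt it is 25.2% of the single peaks and 3.32% of the others, and the gap is smaller beyond 1500 nt (17.9% and 9.93%).

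Single peaks lay on the polyadenylation signal more often than the others. AATAAA was present in 351 of them (20.6%) in 8.12% of the peaks of other genes and in 10.4% of their most-read peaks, and in 9.57% of all peaks. The annotated end of the 3' UTR lay within 60 nt of 340 single peaks, 21.8% of those with an annotated length, and of 6.97% of the others. Within these 60 nt the hexamer was in 51.8% (176) of the single peaks and 46.1% (391) of the others. Farther away it was in 9.98% (122) and 4.69% (531). The deposited sequence ended in a run of at least 8 A in 64 single peaks (3.76%) and 0.850% of the others. The search covered the transcript strand only, and a match shows letters, not a used signal.

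A start at exactly nt 11 was listed for 103 single peaks (6.06%) and 313 others (2.42%). These 103 single peaks held a median of 19.3 reads, and 38 of them held AATAAA. Their 3' UTRs had a median annotated length of 345 nt, and 19 of the 103 genes encode ribosomal proteins. Why peaks start at this position was not tested.

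Gene groups differed in how often their genes had a single peak, against 40.8% of all genes. Ribosomal protein genes had it most often, in 27 of 33 (81.8%), along with mitochondrial ribosomal proteins, in 9 of 11. Subunits of the respiratory chain and ATP synthase had a single peak in 20 of 29 genes (69%), histone genes in 7 of 11, proteasome subunits in 8 of 14 and translation factors in 16 of 29. Of these 6 lists no member was called in either direction. The median 3' UTR length of the single-peak members differed between these lists, but its order was not that of the shares. It was 85 nt for ribosomal proteins, 104.5 nt for histone genes, 235 nt for the respiratory chain and 335 nt for proteasome subunits. For mitochondrial ribosomal proteins it was 497 nt. For translation factors it was 1348 nt, near the 1376 nt of all single-peak genes. The part of length in the counts was not tested.

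The 27 ribosomal protein peaks ranged from 5.23 to 613 reads, with a median of 40.6. Besides Rpl13, well-read members included Rps14, with 122 WT and 114 KO reads, and Rpl4, with 113 and 76.1. AATAAA was in 20 of the 27, 19 started at nt 11 and 21 had more WT than KO reads. The median log2 ratio was 0.66, against 0.33 for all single peaks. Ribosomal protein genes have many near-identical copies in the genome, and the sources used here do not say how reads that fit several places were counted, so these values are uncertain. The list was made from symbols, so it also holds Rpl7l1, a ribosomal protein-like gene, and Rpl34-ps1, a pseudogene by its name.

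Other housekeeping genes gave fewer reads. Among the respiratory chain members Ndufa5 stood far above the rest: the next was Sdhd, a subunit of complex II, with 25.2 WT and 9.34 KO reads. Mrpl18, of the mitochondrial ribosome, held 56.4 and 36.4, and the proteasome subunit Psmb4 25 and 35.6. Psma5, of the same complex, held 23.6 and 4.71 (p = 0.0429 before and 1.00 after adjustment, authors' deposited table). Glycolysis genes had a single peak in 9 of 18, with a range from 4.42 reads to the 3515 of Aldoa. Pgam1, the phosphoglycerate mutase, held 134 WT and 88.4 KO reads, Hk1, a hexokinase, 31.4 and 14.0, and Gpi1 10.1 and 22.5.

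**Figure D4:**
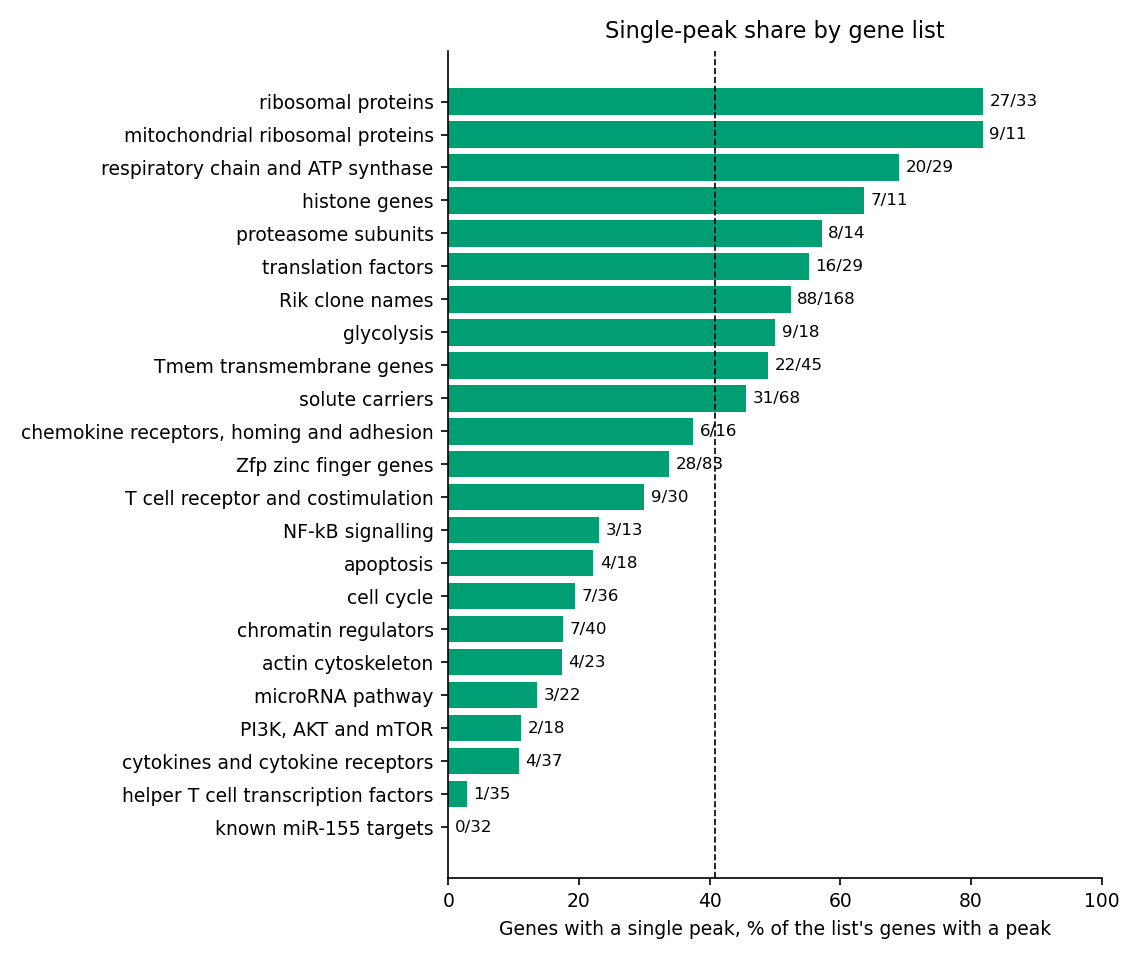
Percent of the genes with a peak that have a single peak, for each gene list with at least 10 such genes, with the counts beside the bars and the 40.8% of all genes as a dashed line. Ribosomal proteins (27 of 33) and mitochondrial ribosomal proteins (9 of 11) are highest, and helper T cell transcription factors (1 of 35) and known miR-155 targets (0 of 32) lowest.

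Among the immune lists with at least 10 genes with a peak, the share of genes with a single peak ranged from 0 of 32 (known miR-155 targets) to 6 of 16 (chemokine receptors, homing and adhesion), against 40.8% of all genes. None of the 32 listed miR-155 targets with a peak did; they held a median of 7.5 peaks each. The lists were made with earlier results of these data known, so that count is not independent evidence. Of 35 helper T cell transcription factors with a peak only Nfil3 had a single one, with 16.5 WT and 22.8 KO reads. Cytokines and their receptors had it in 4 of 37: Il21 and Il13, given above, Il2rg, the common gamma chain, with 9.39 and 16.7 reads, and Tnfrsf1b, a TNF receptor, with 4.72 and 11.7. All 4 had more KO reads, and none was called. The PI3K, AKT and mTOR list had it in 2 of 18, the chromatin regulators in 7 of 40, and the microRNA pathway in 3 of 22.

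The T cell receptor and costimulation list had a single peak in 9 of 30 genes. Tnfrsf4, the costimulatory receptor OX40, held 152 WT and 146 KO reads at a peak with a miR-29 site, 7 nt before the annotated end of its 180-nt 3' UTR. Dgka, a diacylglycerol kinase that limits receptor signalling, held 18.4 and 8.42 reads, and its relative Dgkz 10.3 and 1.35. Tnfrsf18, the receptor GITR, held 4.91 and 8.05. The other members, Cd247, Cd3g, Lat, Plcg1 and Cd3d, held from 0.634 to 7.0 reads in both genotypes together. Only 2 of the 9 had at least 20 reads.

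In the cell cycle list, 7 of 36 genes had a single peak and 1, Mcm2, was lowered. The sliding clamp Pcna held 59.0 WT and 17.3 KO reads without a miR-155 site (p = 0.674, authors' deposited table). Plk1, a mitotic kinase, held 15.8 and 33.5 (p = 0.00823 before and 0.550 after adjustment, authors' deposited table), and Cdkn2c, a cyclin-dependent kinase inhibitor, 28.1 and 10.4. Apart from Plk1, every single-peak gene of this list had more WT reads.

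Signalling and gene regulation lists gave a few well-read single peaks, none of them called. The NF-kB list had a single peak in 3 of 13 genes: besides Tnip1, the inhibitor Nfkbie held 54.1 WT and 40.2 KO reads, and the kinase gene Map3k7 16.3 and 38.5 at a peak with a miR-21 site. Hdac3, a histone deacetylase on the chromatin list like Hdac4, held 38.8 and 50.8 reads at a peak with a miR-23 site. Bbc3, which encodes the death-promoting protein PUMA, held 44.3 and 34.5. Of the microRNA pathway, Dicer1, the enzyme that cuts microRNA precursors, held 5.0 and 7.66 reads, and Cnot1, the scaffold of the deadenylase complex, was listed at 0 in WT with 3.82 in KO. The chemokine and homing list had a single peak in 6 of 16 genes and none reached 20 reads; the chemokine Ccl4 held 5.48 and 9.56.

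Genes of antigen presentation gave few reads. H2-Aa and H2-Eb1, chains of MHC class II molecules of antigen-presenting cells, held 12.5 and 10.5 WT reads and were listed at 0 in KO, without a miR-155 site of 7 or 8 nt. H2-Aa had p = 0.0488 before adjustment and H2-Eb1 p = 0.123 in the authors' deposited table, and neither was called. H2-M3, a class I molecule, held 10.3 and 14.8. Cd74, Cd22 and Cr2, further genes of B cells and antigen-presenting cells, were named after their values were seen, and none of these was called. Cd74, the invariant chain of MHC class II, held 11.5 WT and 3.64 KO reads, and the B cell receptor inhibitor Cd22 held 10.5 and 1.83. Cr2, a complement receptor of B cells, was listed at 0 in WT and held 11.6 reads in KO. Mpeg1, the phagocyte gene with a miR-155 7mer, was called lower as given above, with 122 WT reads and 0 in KO. Of the genes named here, only H2-M3 and Cr2 had more KO than WT reads. All 6 genes of the myeloid marker list and all 6 of the B cell list were without a peak in either genotype, but these lists do not hold Mpeg1, Cd74, Cd22 or Cr2. The part of such cells in the results was not tested. The reads were not set against RNA levels here. In such bulk samples fewer cells of a type, less RNA per cell and less AGO2 on the same RNA cannot be told apart.

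Sites of the searched microRNA families were more common in single peaks than in the other genes' peaks, but not more common than in the most-read peaks of those genes. A site of 7 or 8 nt for at least 1 of 16 families was in 750 single peaks (44.1%), in 34.1% of the other genes' peaks and in 50.9% of their most-read peaks. Among peaks of at least 20 reads these shares were 49.7%, 42.5% and 52.8%. Sites of at least 2 families were in 94 single peaks (5.53%), against 4.24% and 8.24%.

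The miR-15/16 family had the most single peaks, with 119 (7.0%, against 4.26% of the other genes' peaks and 7.38% of their most-read peaks). After Aldoa, the well-read examples were Vps33b, a membrane trafficking protein, with 104 WT and 91.4 KO reads, and Cox11, a cytochrome oxidase assembly factor, with 87.3 and 116. Sites of miR-142-3p were in 65 single peaks (3.82%) and in 6.41% of the most-read peaks of other genes. Rab3a, a GTPase of secretion, held 103 and 140 reads at such a site, and Oxa1l, which inserts proteins into the inner mitochondrial membrane, 123 and 96.6. The miR-17 family had 71 (4.18%, against 3.65% and 5.68%). No single peak that held a site of 1 of the other 15 families was called in either direction.

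Of the 16 families, with peaks that hold AATAAA counted, miR-25/92 had the largest excess of sites in the well-read single peaks over both comparison sets. Its sites were in 83 single peaks (4.88%), in 2.50% of the other genes' peaks and in 4.50% of their most-read peaks. Among peaks of at least 20 reads the shares were 7.94% (45 of 567), 3.48% and 4.85%. Many of these sites share letters with the polyadenylation signal, since a 7mer ending in the extra A can run on into AATAAA. The site overlapped the hexamer in 26 of the 83 single peaks and in 40 of the 323 other peaks with a site. Without the peaks that hold AATAAA, the share was 3.85% of the single peaks, 2.25% of the others and 4.03% of the most-read peaks. For at least 20 reads it was 6.4%, 3.16% and 4.36%. In those same peaks without AATAAA, miR-15/16 stood at 10.2%, 6.02% and 8.0%. By difference in percentage points its excess was then the larger over both comparison sets. Hps6, a subunit of a lysosome biogenesis complex, held 159 WT and 216 KO reads at a miR-25/92 site.

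**Figure D5:**
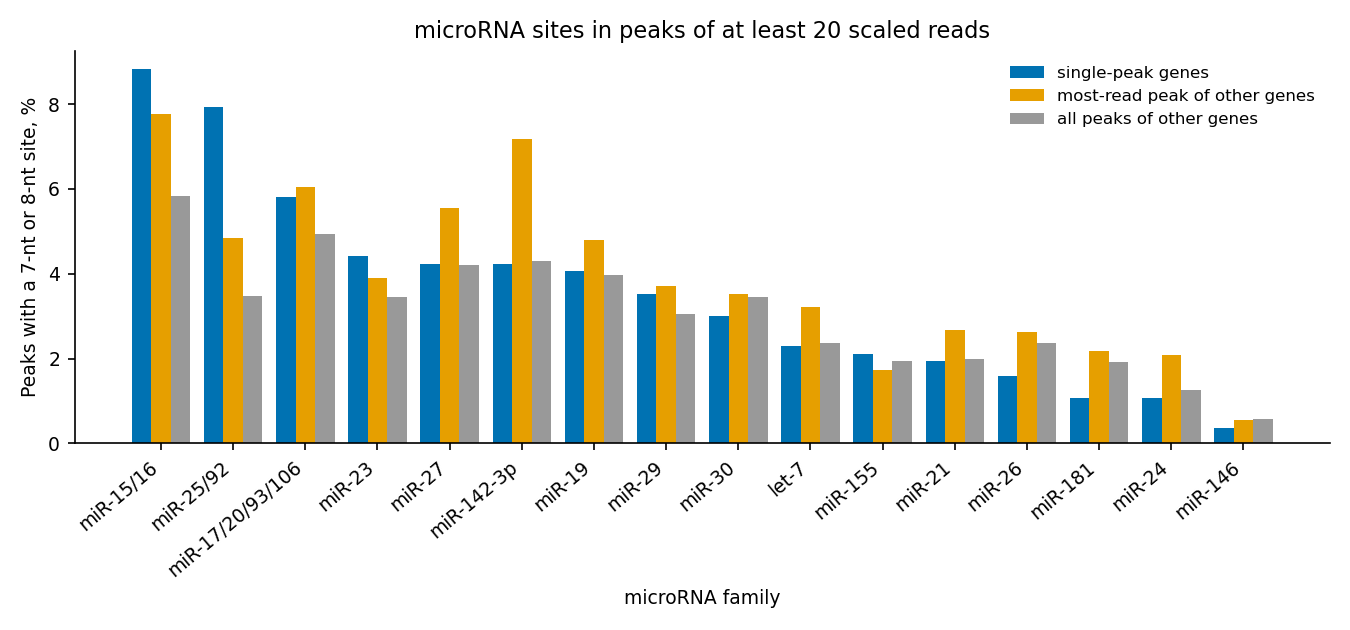
Percent of peaks of at least 20 scaled reads with a 7-nt or 8-nt site of each microRNA family, for the 567 single peaks (blue), the 2020 most-read peaks of other genes (orange) and all 6030 such peaks of other genes (grey). The miR-25/92 family is at 7.94%, 4.85% and 3.48%, and miR-142-3p at 4.23%, 7.18% and 4.30%.

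The log2 ratio was higher at peaks with few reads, in both sets. Its median was 0.33 over all single peaks and 0.18 over the peaks of other genes. By reads, it was 1.08 in single peaks of up to 5 reads, 1.36 in those of 5 to 10, 0.33 at 10 to 20, 0.12 at 20 to 50 and -0.07 above 50. The other genes' peaks gave 1.31, 0.70, 0.38, 0.09 and -0.07 in the same classes. The share listed at 0 in KO fell over these classes from 51.7% to 1.36% of the single peaks and from 55.2% to 0.469% of the others. Summed over the single peaks, WT held 27317 reads and KO 25115. The peaks of other genes went the other way, with 343771 in WT and 349011 in KO.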

How the data were processed

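AGO2 HITS-CLIP libraries (12 WT, 12 miR-155 KO, grouped by their genotype labels) were analysed from 1 table of the whole series. The submitters' processing notes name Bowtie 0.12.7 and the genome mm9; the sources used here do not name the peak caller, the scaling of reads or the test. The deposited table has, per the file headers, log2 reads for WT and KO, the log2 ratio of WT over KO, and the authors' p-value of differential binding for every peak. The log2 columns were read as log2(1 + scaled reads), and 1 was taken off after reversing the log; the deposited ratio equalled their difference to within 6e-05. The libraries are pooled, so a test across libraries, planned for a table of counts, could not be made; depth per library is unknown. The labels call the libraries biological replicates, and what spread the authors' p-values reflect is unknown.

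A Benjamini-Hochberg adjustment over the 14634 peaks was applied to the p-values (threshold 0.05). In 14608 peaks the sequence includes flanks of 6 nt, and it was searched on the transcript strand for 16 of 17 listed microRNA families (miR-150-5p was not searched). Exact matches to GENCODE M21 transcripts placed 1635 single peaks (61 after leaving out a run of A at the end), 1613 of them in annotated 3' UTRs; coordinates are GRCm38, not mm9. For 1562 the deposited start agreed within 1 nt with an annotated 3' UTR start, and only these have a length. The members and the 30 gene lists were chosen with earlier results of these data known. Named were all called members, the 15 most-read, those of at least 20 reads with a miR-155 site of 7 or 8 nt, the 5 largest and 5 most negative ratios at 20 reads, all members of 4 immune lists, up to 4 of each other list and up to 3 per microRNA family; Ndufs1, Kbtbd4, Cd74, Cd22, Cr2 and the peaks without reads were named after their values were seen. A few items that this rule names are not reported here. Adjustment and site search were tested on simulated data. Python 3.11.15, NumPy 2.4.6, pandas 2.3.3, SciPy 1.17.1 and matplotlib 3.10.9 were used.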

Additional observations from a re-analysis of the deposited data

How the results depend on the processing

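The number of single-peak genes was 1700 by symbol and by transcript, 1656 when only peaks of at least 5 reads were counted and 1511 at 10. The 7 lowered single peaks stayed 7 at an adjusted p below 0.01, and were 9 at 0.1 and 9 when the adjustment covered peaks of at least 10 reads. By Bonferroni they were 4, with Mcm2 (0.193), Srp68 (0.0852) and Taok3 (0.306) no longer past 0.05. Over peaks with reads in both genotypes they were 0, as all 7 are listed at 0 in the knockout. Peaks higher in the knockout were 2 at 0.1 and 2 over peaks of at least 10 reads, against 0. The median log2 ratio of 0.33 was 0.13 at 10 reads or more, 0.043 at 20 or more, and 0.079 without the pseudocount over peaks with reads in both genotypes. The share with a miR-155 site was 2.41%, 0.706% for 8mers alone, and between 2.29% and 3.12% under the other site and read settings. The median reads were 0.701 times those of the other genes' peaks and 0.228 times those of their most-read peaks. The median start of 441 nt was 455.5 nt at 10 reads or more, or 44.8% of the 3' UTR length. Replicates could not be left out in turn, and the depth is unknown. No paired analysis was possible because the columns pool the libraries of a genotype and carry no replicate numbers.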
